A study of Mus musculus with 8 samples.

Results

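The BCL2 family survival and death genes are 10 genes, chosen by name as the rows of the deposited table for Bcl2, Bcl2l1, Mcl1, Bcl2l11, Bax, Bak1, Bbc3, Pmaip1, Bid and Bad, out of 22075 genes in all. They were followed across 8 RNA-seq libraries of cultured lung ILC2s, group 2 innate lymphoid cells, which answer alarmins with type 2 cytokines and carry no antigen receptor. The cells came from papain-exposed C57BL/6 mice, and all of them carried floxed Stat3 alleles. The 4 groups held 2 libraries each and were STAT3-KO cells, given IL-33 or kept as controls, and WT cells, likewise given IL-33 or kept as controls. STAT3-KO cells also carried Vav-iCre, a recombinase expressed in blood cells generally, so that a genotype difference cannot be told apart from the presence of Cre. Every culture received 10 ng/ml IL-2 for about 5 days, and the IL-33 groups then received 10 ng/ml IL-33, an alarmin released by damaged epithelium, for 2 days. The labels do not describe the control medium during those days, the floxed exons, the ages of the mice, or whether replicates came from separate mice or cultures, so p-values measure the spread between these libraries, which may be technical.

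Mitochondrial apoptosis is decided by binding between members of this family. Anti-apoptotic proteins (BCL2, BCL-XL from Bcl2l1, and MCL1) hold the pore-forming effectors BAX and BAK (from Bak1) in check. BH3-only proteins (BIM from Bcl2l11, PUMA from Bbc3, NOXA from Pmaip1, BID and BAD) sense stress or missing growth factor and either occupy the anti-apoptotic proteins or activate the effectors. In lymphocytes, cytokines that signal through the common gamma chain, IL-2 among them, are known to sustain anti-apoptotic members and to restrain BIM. STAT3 is known in other cells as an activator of Bcl2l1, Mcl1 and Bcl2.

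The stretches just upstream of 3 genes are shown because these genes changed in different ways: Bcl2 and Bcl2l11 were lower with IL-33, and Bcl2l1 was higher with IL-33 in STAT3-KO cells. Each holds the 250 bases before a RefSeq transcript start (GRCm38.p6), 5′ to 3′ on the strand of the gene, from chr1:106714291-106714540 (minus) for Bcl2, chr2:152831729-152831978 (minus) for Bcl2l1 and chr2:128125788-128126037 (plus) for Bcl2l11. Capitals mark a match to a FOXO motif.
Bcl2: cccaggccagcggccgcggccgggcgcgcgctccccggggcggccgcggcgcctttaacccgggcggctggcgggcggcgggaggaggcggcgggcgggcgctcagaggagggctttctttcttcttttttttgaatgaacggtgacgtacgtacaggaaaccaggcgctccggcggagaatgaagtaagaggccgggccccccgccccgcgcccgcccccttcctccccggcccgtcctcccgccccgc
Bcl2l1: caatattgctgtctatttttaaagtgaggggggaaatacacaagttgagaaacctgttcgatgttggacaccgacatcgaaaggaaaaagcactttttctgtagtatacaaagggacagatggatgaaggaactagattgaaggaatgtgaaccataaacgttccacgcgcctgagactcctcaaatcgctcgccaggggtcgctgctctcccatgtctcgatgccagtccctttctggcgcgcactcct
Bcl2l11: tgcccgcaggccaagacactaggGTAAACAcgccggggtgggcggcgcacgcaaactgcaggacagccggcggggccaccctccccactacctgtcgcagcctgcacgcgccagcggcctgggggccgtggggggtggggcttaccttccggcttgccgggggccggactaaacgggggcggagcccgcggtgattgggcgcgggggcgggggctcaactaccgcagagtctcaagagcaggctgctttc
These windows were searched on both strands for a STAT motif (TTCNNNGAA), a FOXO motif (GTAAACA) and an NF-kB core (GGGNNTTTC), none of which overlaps another in the matches found. Of all 32851 promoter windows, 7.02% held the STAT motif, 3.17% the FOXO motif and 3.72% the NF-kB core. Among the members 9 of 10 had a window, with 15 starts in all, and 5 starts held a match. The FOXO motif lay 227 bases before the start of Bcl2l11, the gene of BIM, and on the other strand 167 bases before a further start of Bbc3. An NF-kB core lay on the minus strand as GAAACGCCC 27 bases before Mcl1, as GAAACCCCC 135 bases before the start nearest to Bbc3 and as GAAAAACCC 217 bases before a start inside Bcl2l1. No STAT match was in any of the 15 windows, which says only that these letters are not there. The windows also differed in composition. GC content was 74.8% with 36 CpG for Bcl2, 72% with 24 CpG for Bcl2l11 and 47.6% with 12 CpG for Bcl2l1, beside medians of 52.4% and 6 over all promoters.

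Levels are given in FPKM (fragments per kilobase of exon, scaled for sequencing depth), and differences are on the log2(FPKM + 1) scale, each followed by its standard error (SE) from limma. A gene is called where its adjusted p (Benjamini-Hochberg, over the 11877 genes that reached 1 FPKM in 2 or more libraries) is under 0.05. All 10 members passed that filter, but Bcl2l11 passed only through its control libraries. Depth, recovered from the steps of the values, was 15843517 to 19904597 fragments per library, and the floor of 3 fragments per 1 kb was 0.151 to 0.189 FPKM, for counting error only. Stat3 measured 8.03 and 9.69 FPKM in STAT3-KO with IL-33, 15.3 and 16.0 in STAT3-KO control, 49.0 and 55.3 in WT with IL-33, and 41.7 and 50.7 in WT control, so that the genotypes did not overlap. Of 12 ILC2 markers, 12 were at 1 FPKM or more in every library, but their levels moved with the groups. Their summed level was 3813 to 4182 FPKM in STAT3-KO with IL-33, 3587 to 3612 in STAT3-KO control, 10505 to 11282 in WT with IL-33 and 3688 to 3799 in WT control. Thy1 was at 2.37 and 2.56 FPKM in STAT3-KO with IL-33 against 19.6 to 41.9 in the other groups, Il7r at 69.6 and 78.4 against 173 to 581, and Il1rl1, which encodes the IL-33 receptor, at 78.5 and 92.4 against 231 to 424. Gata3, Id2 and Klrg1 were also lowest in that group. Il2ra, Areg, Il5 and Il13 were instead above both control groups there, as Il2ra at a mean of 345 FPKM against 106 in STAT3-KO control and 94.1 in WT control. Icos and Rora were below both control groups, as they were in WT with IL-33. Among markers of other cells, 1 or 2 of 7 T cell markers, Cd3g and Trac, reached 1 FPKM in a library (summed 6.02 to 11.6 FPKM), with Cd4 at 0 in 7 libraries. The mast cell and basophil list moved with the groups: 3 of its 5 genes were in the table, and their summed level was 7.49 to 8.68 FPKM in STAT3-KO with IL-33, 111 to 140 in STAT3-KO control, 127 to 155 in WT with IL-33 and 299 to 326 in WT control, mostly from Cpa3 and, in WT with IL-33, Mcpt8, with Cma1 at 0 in 7 libraries. Tbx21, from the list of NK cells and ILC1, was at 19.7 and 21 FPKM in STAT3-KO control and at 0 to 4.55 elsewhere, while Ncr1 and Eomes stayed at or near 0. From the epithelial and stromal list, Epcam was at 0.331 and 0.441 FPKM in STAT3-KO with IL-33 and at 4.13 to 9.5 elsewhere. Pecam1 of that list was at 15.2 to 26.5 FPKM in every library. Cd68, from the macrophage and monocyte list, was at 2.78 to 5.68 FPKM with IL-33 and at 0 to 2.6 in control. The part of these genes and of the ILC2 markers in the results was not tested, and in bulk RNA fewer cells of a type and less RNA per cell cannot be told apart.

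**Figure D1:**
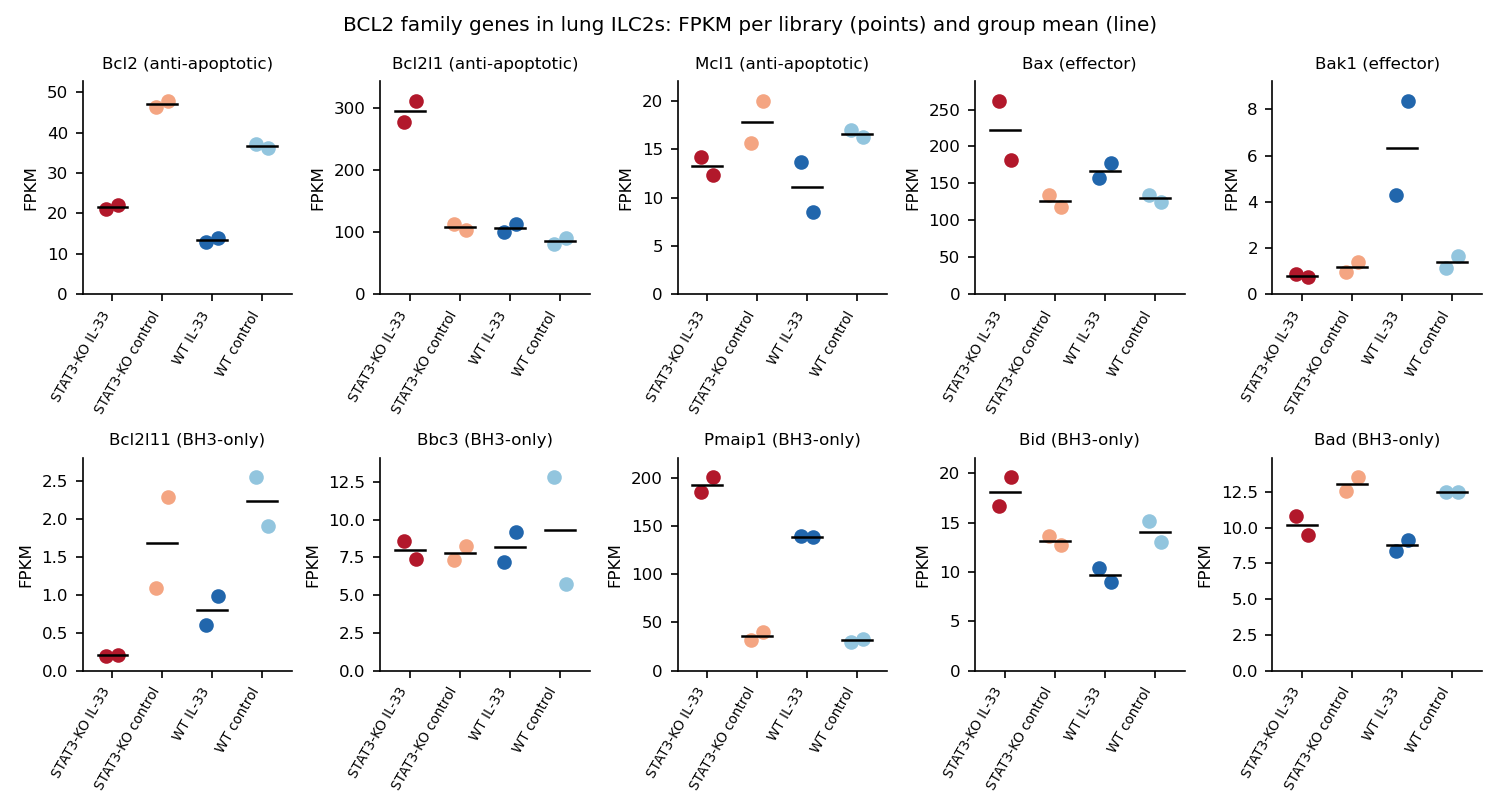
FPKM of the 10 members (y axes, linear from 0, 1 panel per gene) in the 4 groups, each point 1 library and each line the mean of 2. Bcl2l1 at 278 and 312 FPKM in STAT3-KO with IL-33 and Bak1 at 4.28 and 8.37 in WT with IL-33 stand above the other groups, and Bcl2 is lowest in WT with IL-33.

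Of the anti-apoptotic members, Bcl2 fell with IL-33 in both genotypes, Bcl2l1 rose with IL-33 in STAT3-KO cells, and Mcl1 passed the test in no comparison. Bcl2 (ENSMUSG00000057329, GRCm38 chr1:106538178-106714274, minus strand) encodes the founding survival protein of the family. It measured 21.1 and 22.1 FPKM in STAT3-KO with IL-33, 46.4 and 47.9 in STAT3-KO control, 12.9 and 13.9 in WT with IL-33, and 37.2 and 36.2 in WT control. The 4 groups did not overlap, with the IL-33 libraries below the control libraries and, under either treatment, STAT3-KO above WT. Bcl2 fell with IL-33, with differences of -1.09 ± 0.11 in STAT3-KO (adjusted p = 0.000103) and -1.39 ± 0.11 in WT (adjusted p = 4.69e-05). The genotypes differed by 0.65 ± 0.11 with IL-33 (adjusted p = 0.00266), while the difference in control was 0.35 ± 0.11 (adjusted p = 0.302). The difference between the 2 IL-33 responses was 0.30 ± 0.15 and did not pass (adjusted p = 0.217). Bcl2 is long, with 9157 exon bases, and among the 1653 genes of at least 8000 bases the median difference with IL-33 in STAT3-KO was -0.55, with 50.0% called lower, against 0 and 20.1% for the 2873 genes of at most 2000 bases. With that trend removed, the fall of Bcl2 in STAT3-KO was -0.64 (adjusted p = 0.00205), and the difference between responses became 0.61 (adjusted p = 0.0361).

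Bcl2l1 (ENSMUSG00000007659, chr2:152780668-152831728, minus strand) gives BCL-XL, and in its short splice form a pro-apoptotic protein that a value per gene cannot separate. It measured 278 and 312 FPKM in STAT3-KO with IL-33, 113 and 103 in STAT3-KO control, 101 and 114 in WT with IL-33, and 80.9 and 90.9 in WT control. The STAT3-KO libraries with IL-33 stood apart at 2.73 times the mean of STAT3-KO control and 2.75 times that of WT with IL-33, whereas STAT3-KO control and WT with IL-33 overlapped. IL-33 raised it by 1.44 ± 0.11 in STAT3-KO (adjusted p = 2.99e-05), and in WT the difference was 0.32 ± 0.11 (adjusted p = 0.059). The difference between these responses was 1.12 ± 0.16 and passed the test (adjusted p = 0.00404). With IL-33, STAT3-KO exceeded WT by 1.45 ± 0.11 (adjusted p = 7.41e-05), and in control the difference was 0.33 ± 0.11 (adjusted p = 0.38). The call in WT depended on scaling: it was made after median-of-ratios rescaling (0.49, adjusted p = 0.0105), with the length trend removed (0.43, adjusted p = 0.0112) and with an FPKM minimum of 5 (adjusted p = 0.0465).

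Mcl1 (ENSMUSG00000038612, chr3:95658788-95663176, plus strand) encodes a short-lived protein that is largely controlled after transcription. It measured 14.2 and 12.4 FPKM in STAT3-KO with IL-33, 15.7 and 20.0 in STAT3-KO control, 13.7 and 8.47 in WT with IL-33, and 17 and 16.2 in WT control. The IL-33 libraries lay below the control libraries in each genotype, and the genotypes overlapped under both treatments. The differences with IL-33 were -0.39 ± 0.22 in STAT3-KO (adjusted p = 0.158) and -0.58 ± 0.22 in WT (adjusted p = 0.0671). WT with IL-33 was uneven: the difference in WT was -0.90 without its replicate 1 (adjusted p = 0.0227) and -0.26 without its replicate 2 (adjusted p = 0.373). With an FPKM minimum of 5 it passed as well (adjusted p = 0.0476).

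Both effectors rose with IL-33, Bax in STAT3-KO cells and Bak1 in WT cells. Bax (ENSMUSG00000003873, chr7:45461697-45466898, minus strand), whose protein moves from the cytosol to mitochondria, measured 262 and 182 FPKM in STAT3-KO with IL-33, 135 and 118 in STAT3-KO control, 157 and 177 in WT with IL-33, and 135 and 125 in WT control. IL-33 libraries were above control libraries in each genotype. The rise was 0.79 ± 0.17 in STAT3-KO (adjusted p = 0.00478), and the difference in WT was 0.36 ± 0.17 (adjusted p = 0.126), which passed after rescaling (0.53, adjusted p = 0.0455), with the WT groups fitted alone (adjusted p = 0.0491) and without replicate 1 or 2 of STAT3-KO with IL-33 (adjusted p = 0.0381 for each). STAT3-KO replicate 1 with IL-33 was the highest library. Without it the rise in STAT3-KO was 0.53 (adjusted p = 0.0198), and the genotype difference with IL-33, 0.39 ± 0.17 in all libraries (adjusted p = 0.109), was 0.13. Without replicate 2 of the same group that genotype difference was 0.65 (adjusted p = 0.0139) and the difference between responses was 0.69 (adjusted p = 0.0423), against 0.43 ± 0.23 with all libraries (adjusted p = 0.242).

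Bak1 (ENSMUSG00000057789, chr17:27019810-27029009, minus strand), whose protein resides in the outer mitochondrial membrane, was rare. It measured 0.866 and 0.748 FPKM in STAT3-KO with IL-33, 0.939 and 1.37 in STAT3-KO control, 4.28 and 8.37 in WT with IL-33, and 1.14 and 1.65 in WT control. These values stood for 34 and 32 fragments in STAT3-KO with IL-33, 38 and 53 in STAT3-KO control, 205 and 328 in WT with IL-33, and 46 and 63 in WT control. Only WT with IL-33 stood above the rest, at 4.53 times the mean of WT control. The rise in WT was 1.56 ± 0.29 (adjusted p = 0.00403), and in STAT3-KO the difference was -0.25 ± 0.29 (adjusted p = 0.499). STAT3-KO with IL-33 was lower than WT with IL-33, with a difference of -1.96 ± 0.29 (adjusted p = 0.0015). The difference between responses was -1.81 ± 0.41 (adjusted p = 0.022). It missed the threshold without any 1 of replicates 1 and 2 of STAT3-KO with IL-33 or of STAT3-KO control, replicate 2 of WT with IL-33 or replicate 1 of WT control (values -1.96 to -1.40, adjusted p 0.0505 to 0.0809), and with no filter on low values (adjusted p = 0.0786).

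Among the BH3-only members, Pmaip1 rose with IL-33 in both genotypes. Bcl2l11 fell in STAT3-KO and, with a call lost in 10 of 15 alternatives, in WT. Bid rose in STAT3-KO and fell in WT, and Bad fell in WT, but each of these calls was lost in some alternatives. Pmaip1 (ENSMUSG00000024521, chr18:66458604-66465550, plus strand) encodes NOXA, a p53 and stress target that binds MCL1. It measured 185 and 201 FPKM in STAT3-KO with IL-33, 32.0 and 40.4 in STAT3-KO control, 140 and 138 in WT with IL-33, and 29.8 and 32.8 in WT control. Every IL-33 library exceeded every control library, at 5.32 times the control mean in STAT3-KO and 4.44 times in WT. The rise was 2.39 ± 0.13 in STAT3-KO (adjusted p = 3.95e-06) and 2.12 ± 0.13 in WT (adjusted p = 1.22e-05), with a difference between responses of 0.27 ± 0.18 (adjusted p = 0.336). With IL-33, STAT3-KO exceeded WT by 0.47 ± 0.13 (adjusted p = 0.0225). That call was lost without replicate 1 or 2 of either IL-33 group (0.41 to 0.53, adjusted p 0.0519 to 0.106), with no filter (adjusted p = 0.0522), with an untrended prior variance (adjusted p = 0.0604) and with the length trend removed (0.33, adjusted p = 0.0805).

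Bcl2l11 (ENSMUSG00000027381, chr2:128126038-128162547, plus strand) encodes BIM, the BH3-only protein that limits lymphocyte lifespan on cytokine withdrawal. It measured 0.199 and 0.203 FPKM in STAT3-KO with IL-33, 1.09 and 2.28 in STAT3-KO control, 0.607 and 0.987 in WT with IL-33, and 2.55 and 1.91 in WT control. The gene has 8029 exon bases, so that even the lowest values stood for 26 and 29 fragments. Each IL-33 library lay below each control library. The mean with IL-33 was 0.119 times the control mean in STAT3-KO and 0.358 times in WT, while on the log2(FPKM + 1) scale, which understates changes at such levels, the differences were -1.12 ± 0.27 in STAT3-KO (adjusted p = 0.0085) and -0.85 ± 0.27 in WT (adjusted p = 0.0382). With a pseudocount of 0.1 they were -2.48 in STAT3-KO (adjusted p = 0.00392) and -1.40 in WT (adjusted p = 0.0543). Between genotypes with IL-33 the difference was -0.57 ± 0.27 (adjusted p = 0.138), and with that pseudocount it was -1.54 and passed (adjusted p = 0.0416). The call in STAT3-KO was lost without replicate 2 of STAT3-KO control (-0.80, adjusted p = 0.0637) and with the length trend removed (-0.72, adjusted p = 0.0603). The call in WT was lost in 10 of 15 alternatives, including no filter on low values (adjusted p = 0.0967, against 0.0295 in STAT3-KO), and leaving out either library of WT with IL-33, WT control or STAT3-KO with IL-33 (values -1.0 to -0.69).

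Bid (ENSMUSG00000004446, chr6:120891930-120916853, minus strand), whose protein is cut by caspase-8 and so links death receptors to mitochondria, measured 16.7 and 19.6 FPKM in STAT3-KO with IL-33, 13.6 and 12.8 in STAT3-KO control, 10.4 and 8.95 in WT with IL-33, and 15.1 and 13.1 in WT control. STAT3-KO with IL-33 was the highest group, WT with IL-33 the lowest, and the control groups overlapped. With IL-33 it rose in STAT3-KO (0.43 ± 0.15, adjusted p = 0.0406) and fell in WT (-0.50 ± 0.15, adjusted p = 0.0316). With IL-33, STAT3-KO exceeded WT by 0.84 ± 0.15 (adjusted p = 0.00359), a call kept in every alternative run, and the difference between responses was 0.93 ± 0.21 (adjusted p = 0.0227). The rise in STAT3-KO was lost in 8 of 16 alternatives, among them leaving out either library of STAT3-KO control or WT with IL-33, or replicate 2 of STAT3-KO with IL-33 (adjusted p 0.0501 to 0.17), and the fall in WT in 9, among them leaving out either library of STAT3-KO control or WT with IL-33, or replicate 1 of WT control (adjusted p 0.0521 to 0.161). The difference between responses missed the threshold without either library of WT with IL-33 or STAT3-KO control, replicate 2 of STAT3-KO with IL-33 or replicate 1 of WT control (0.82 to 1.03, adjusted p 0.0515 to 0.0871).

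Bad (ENSMUSG00000024959, chr19:6941861-6951898, plus strand), whose protein is held inactive by survival kinases, measured 10.8 and 9.5 FPKM in STAT3-KO with IL-33, 12.5 and 13.5 in STAT3-KO control, 8.39 and 9.15 in WT with IL-33, and 12.5 and 12.5 in WT control. IL-33 libraries were below control libraries in each genotype. The fall in WT was -0.47 ± 0.14 (adjusted p = 0.0284), and the difference in STAT3-KO was -0.33 ± 0.14 (adjusted p = 0.0712), which passed with the length trend removed (-0.45, adjusted p = 0.0218). The call in WT was lost after rescaling (-0.31, adjusted p = 0.116) and without either library of WT with IL-33 or WT control (-0.52 to -0.41). Bbc3 (ENSMUSG00000002083, chr7:16308393-16318205, plus strand), the gene of the p53 target PUMA, measured 8.60 and 7.39 FPKM in STAT3-KO with IL-33, 7.31 and 8.22 in STAT3-KO control, 7.19 and 9.17 in WT with IL-33, and 12.8 and 5.76 in WT control. All 4 groups overlapped, with both the highest and the lowest library in WT control. Its differences with IL-33 were 0.037 ± 0.30 in STAT3-KO (adjusted p = 0.93) and -0.082 ± 0.30 in WT (adjusted p = 0.85), which does not show that it was unaffected.

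**Figure D2:**
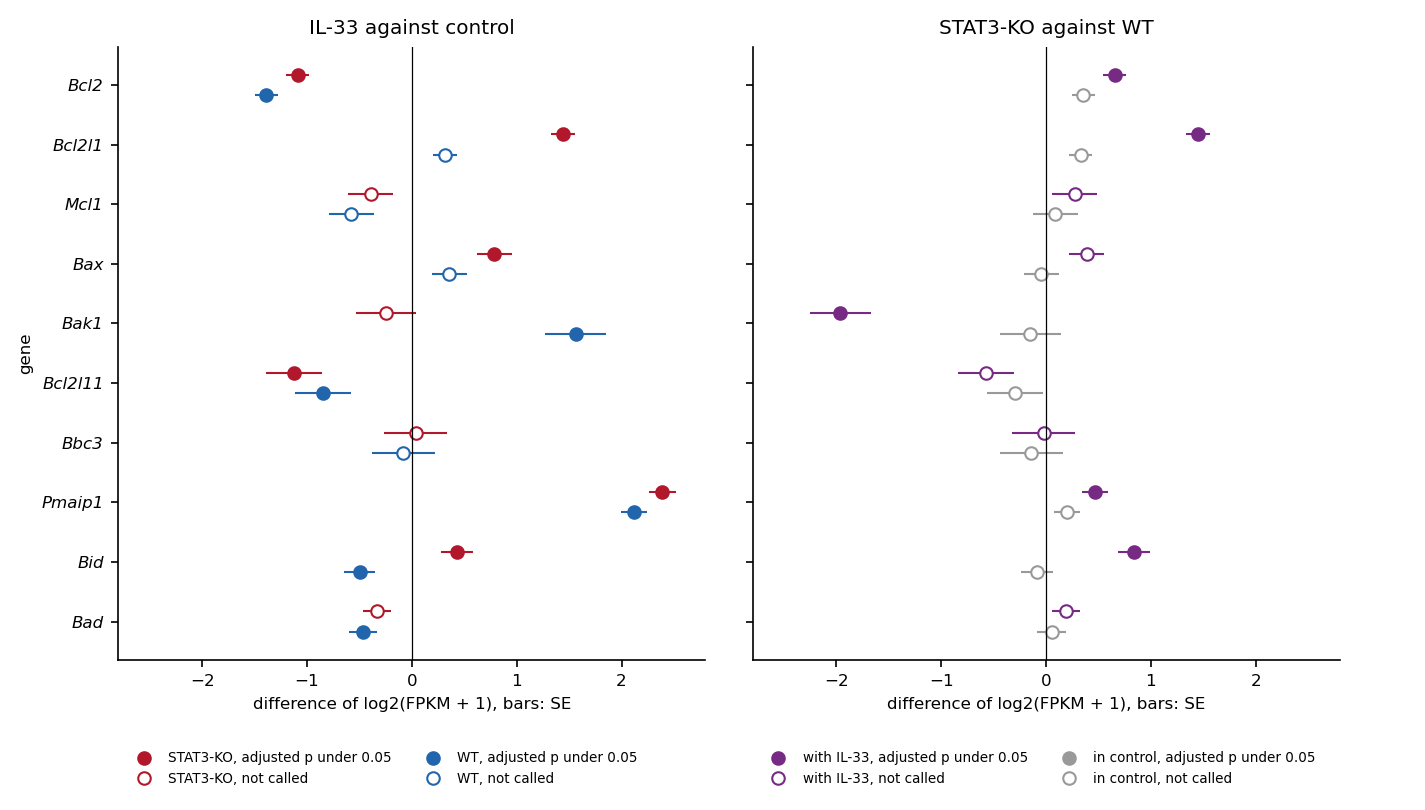
Differences of log2(FPKM + 1) (x axes, bars are SE) for the 10 members (rows), with IL-33 against control on the left (STAT3-KO above WT) and STAT3-KO against WT on the right (with IL-33 above control). Filled points passed an adjusted p of 0.05, as Pmaip1 at 2.39 and 2.12 and Bak1 at -1.96, and no point of the control comparison is filled.

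Counted by comparison, 4 members rose and 2 fell with IL-33 in STAT3-KO cells, where 51% of all genes tested were called (20.4% higher and 30.6% lower). In WT cells 2 rose and 4 fell, where 36.1% were called (14.5% higher and 21.6% lower), and the count of 6 dropped to 3 without replicate 2 of WT with IL-33 or replicate 1 of WT control. The balance in WT also turned with the scaling: after median-of-ratios rescaling 4 were higher (Bak1, Pmaip1, Bcl2l1 and Bax) and 1, Bcl2, was lower. All genes turned the same way in WT: 2299 were then called higher and 1863 lower, against 1724 and 2561 before rescaling. With IL-33, STAT3-KO was higher than WT for 4 members and lower for 1, where 32.6% were called (16.3% higher and 16.4% lower). In control, limma called 0 members, with 2 at an unadjusted p under 0.05 (Bcl2 and Bcl2l1), where 0.463% of genes were called (0.253% higher and 0.21% lower). The difference between responses was called for 3 members (Bcl2l1 and Bid higher in STAT3-KO, Bak1 lower), where 15.1% were called (6.72% higher and 8.43% lower), and for 1 member, Bcl2l1, without any 1 of replicates 1 and 2 of STAT3-KO control, replicate 2 of WT with IL-33 or replicate 1 of WT control. Groups did not overlap for 9 members with IL-33 in STAT3-KO (77% of all genes), 9 in WT (70.4%), 8 between genotypes with IL-33 (66.9%) and 3 between genotypes in control (38%). A count of 6 of 10 with IL-33 in STAT3-KO is near the share of all genes, and with so few members none of these counts is read as a result about the family. The members' median difference was -0.11 with IL-33 in STAT3-KO and -0.27 in WT, beside -0.18 and -0.14 for all genes, and after median-of-ratios rescaling the medians of all genes were -0.0090 in STAT3-KO and -0.0012 in WT. The genotype comparison with IL-33 shares its libraries with the IL-33 comparisons, so their results are not independent.

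In summed FPKM, the 10 members came to 797 and 766 in STAT3-KO with IL-33, 377 and 368 in STAT3-KO control, 455 and 488 in WT with IL-33, and 344 and 336 in WT control. FPKM is per length, but with IL-33 in STAT3-KO long genes still fell more than short ones. Bcl2 has 9157 exon bases and Bcl2l1 4586, and the ratios and shares below are not corrected for that trend. With it removed, the fall of Bcl2 in STAT3-KO was -0.64 rather than -1.09. The part of gene length in the ratios was not tested. Among the anti-apoptotic members, Bcl2l1 made up 88.7% and 90.0% in STAT3-KO with IL-33, 64.5% and 60.4% in STAT3-KO control, 79.1% and 83.6% in WT with IL-33, and 59.9% and 63.4% in WT control. The level of Bcl2l1 over that of Bcl2 was 13.1 and 14.1 in STAT3-KO with IL-33, 2.43 and 2.16 in STAT3-KO control, 7.81 and 8.19 in WT with IL-33, and 2.18 and 2.51 in WT control. The IL-33 libraries of both genotypes had a larger share of Bcl2l1 than their control libraries, with Bcl2 lower in both and Bcl2l1 called higher in STAT3-KO. In STAT3-KO cells, Pmaip1 supplied 83.6% and 84.5% of the FPKM of the BH3-only members with IL-33 and 48.1% and 52.4% in control. In WT cells it supplied 84.0% and 83% with IL-33 and 41.0% and 49.6% in control. These shares leave out Bik, a BH3-only gene outside the 10 members. Bik measured 56.1 and 42.7 FPKM in STAT3-KO with IL-33 and 61.4 and 51.4 in STAT3-KO control. In WT it measured 37.4 and 37.9 with IL-33 and 73.0 and 69.5 in control, above Pmaip1 in both control groups. The level of Pmaip1 over that of Mcl1, whose protein is a partner of NOXA, was 13.1 and 16.2 in STAT3-KO with IL-33 and 2.04 and 2.02 in STAT3-KO control. In WT it was 10.2 and 16.3 with IL-33 and 1.75 and 2.02 in control. The summed level of Bcl2, Bcl2l1 and Mcl1 was 313 and 346 FPKM in STAT3-KO with IL-33 and 175 and 171 in STAT3-KO control. It was 127 and 136 in WT with IL-33 and 135 and 143 in WT control. These sums and shares leave out anti-apoptotic Bcl2a1d, whose level is uncertain. Bcl2a1d measured 153 and 101 FPKM in STAT3-KO with IL-33 and 14.7 and 12.8 in STAT3-KO control. In WT it measured 43.5 and 44.4 with IL-33 and 7.73 and 10.8 in control, so the sums do not give the whole anti-apoptotic level. RNA levels do not give protein levels, which for NOXA and MCL1 turn over fast.

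**Figure D3:**
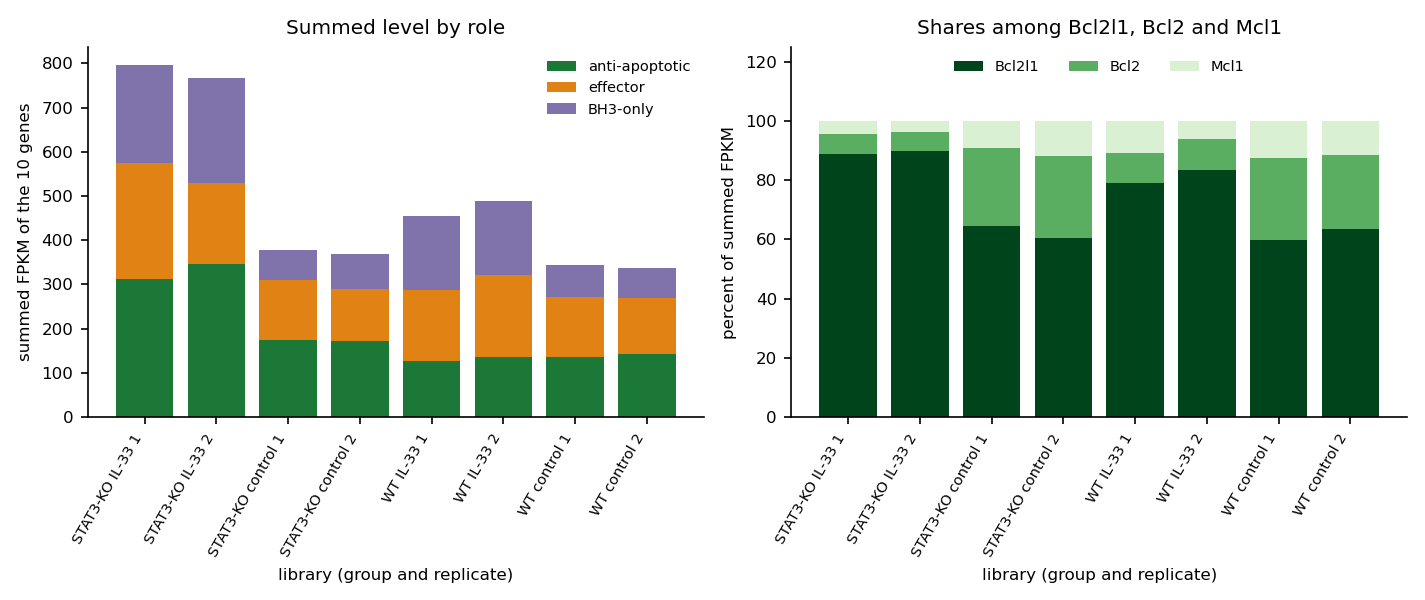
Left, FPKM of the 10 members summed by role in each of the 8 libraries (stacked bars from 0). Right, the percent that Bcl2l1, Bcl2 and Mcl1 each made of their summed FPKM. The STAT3-KO libraries with IL-33 have the highest bars, 797 and 766, and the highest share of Bcl2l1, 88.7% and 90.0%.

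By level, Bax was first in 3 groups and Bcl2l1 first in STAT3-KO with IL-33, where it was followed by Bax and Pmaip1, which overlapped. In both control groups the order went on with Bcl2l1, Bcl2, Pmaip1 and Mcl1, each above the next in both libraries. In WT with IL-33 Pmaip1 was the second and Bcl2l1 the third, and Bcl2, Mcl1, Bid, Bad, Bbc3 and Bak1 followed with each neighbour overlapping the next. Bcl2l11 was the lowest in both IL-33 groups, and in STAT3-KO control it overlapped Bak1. The genes most like 9 of the members over the 8 libraries, by Pearson's r of log2(FPKM + 1) across 9692 genes, were H2-Q7 for Bcl2 (r = 0.998), Pnkd for Bcl2l1 (0.992), Trim30d for Mcl1 (0.971), Rpl15 for Bax (0.986) and Atp6v0d1 for Bak1 (0.989). For 4 of the BH3-only members they were Hormad2 for Bcl2l11 (0.989), Gap43 for Pmaip1 (0.997), R3hcc1 for Bid (0.984) and Bnip3l for Bad (0.989). These correlations describe 4 groups of 2 libraries that share their treatment and are no test.

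The wider apoptosis pathway was described with 8 lists of 84 genes, of which 75 were tested. With IL-33, 30 rose and 17 fell in STAT3-KO, where 20.4% of all genes rose and 30.6% fell. In WT 27 rose and 12 fell, where 14.5% of all genes rose and 21.6% fell. Between genotypes with IL-33, 18 were higher and 13 lower in STAT3-KO, where 16.3% of all genes were higher and 16.4% lower. Stat3, the gene altered by the genotype, is among those 13 (-2.43 ± 0.15, adjusted p = 2.22e-05). In control 0 were higher and 1, Stat3 itself, was lower (-1.50 ± 0.15, adjusted p = 0.00771). That call missed the threshold without replicate 1 (adjusted p = 0.0749) or 2 (adjusted p = 0.0692) of STAT3-KO control and with the control groups alone (adjusted p = 0.216). Outside the 10 members, anti-apoptotic Bcl2a1d averaged 127 FPKM in STAT3-KO with IL-33, 13.7 in STAT3-KO control, 44.0 in WT with IL-33 and 9.24 in WT control, and STAT3-KO exceeded WT with IL-33 by 1.48 ± 0.21 (adjusted p = 0.00128). Its near-identical copies share reads, so that its level is uncertain. Of 7 other effectors and BH3-only genes, 1 rose and 3 fell with IL-33 in STAT3-KO (median -0.19), and 1 rose and 2 fell in WT (median -0.17). Bnip3, a hypoxia-induced mitophagy receptor, rose with IL-33 in both genotypes and was lower in STAT3-KO with IL-33 (53.4 FPKM) than in WT with IL-33 (98.1), by -0.87 ± 0.17 (adjusted p = 0.00537). Bik fell in WT with IL-33 (37.6 FPKM) relative to WT control (71.2), by -0.90 ± 0.15 (adjusted p = 0.0022). Of 14 apoptosome and caspase genes, 8 rose and 3 fell with IL-33 in STAT3-KO (median difference 0.47) and 5 rose and 3 fell in WT (median 0.11), beside medians of -0.18 and -0.14 over all genes in STAT3-KO and WT. Apaf1, the scaffold of the apoptosome, averaged 3.29 FPKM in STAT3-KO with IL-33, 6.24 in STAT3-KO control, 16.7 in WT with IL-33 and 6.16 in WT control, with a difference between responses of -2.10 ± 0.30 (adjusted p = 0.00388).

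**Figure D4:**
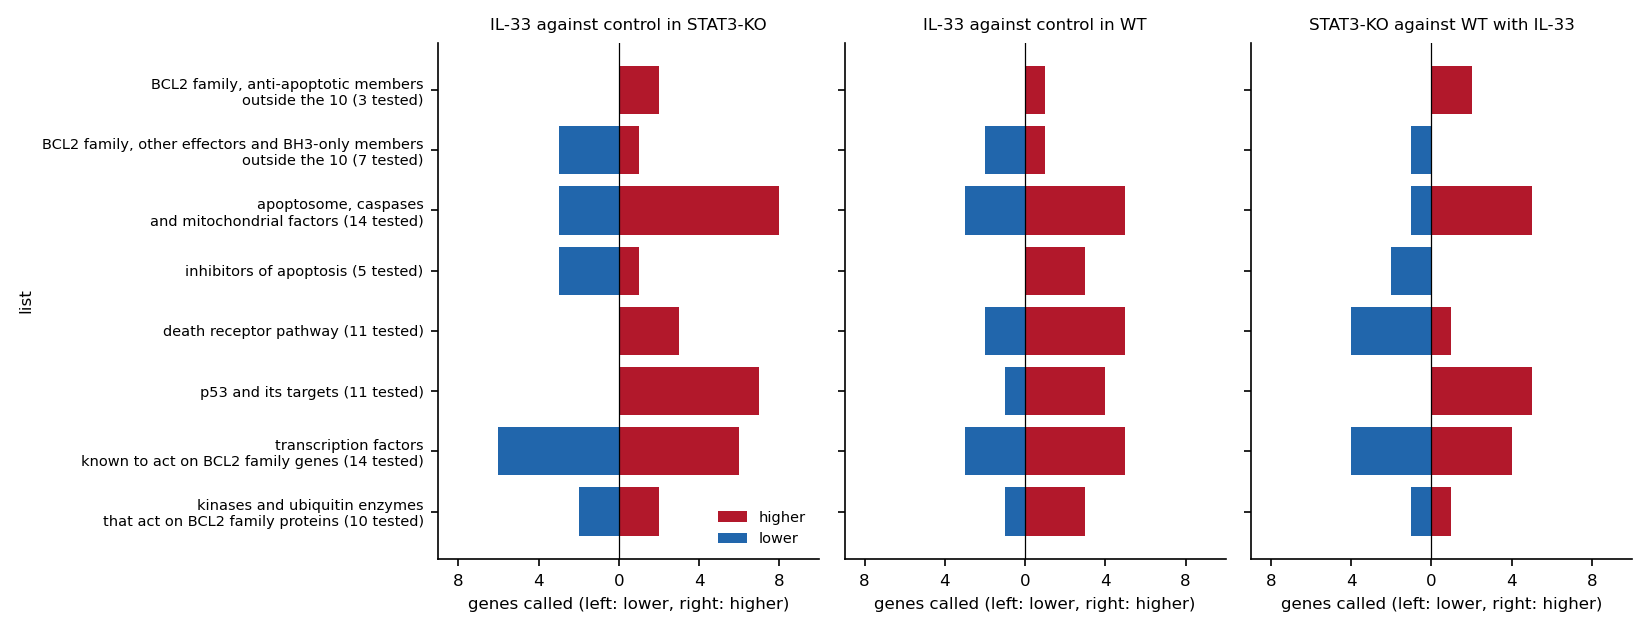
Number of genes called higher (right of 0) or lower (left of 0) in the 8 pathway lists (rows, with the number tested) for IL-33 against control in STAT3-KO and in WT and for STAT3-KO against WT with IL-33. Among 11 genes of p53 and its targets, 7 were higher and 0 lower with IL-33 in STAT3-KO, beside 20.4% and 30.6% of all genes. With IL-33, 5 of them were higher and 0 lower in STAT3-KO than in WT, beside 16.3% and 16.4% of all genes.

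Upstream of the mitochondria, 7 of 11 p53 genes rose and 0 fell with IL-33 in STAT3-KO (median difference 0.98), beside 20.4% and 30.6% of all genes (median -0.18). In WT 4 rose and 1 fell (median 0.27), beside 14.5% and 21.6% of all genes (median -0.14). Trp53, the gene of p53 itself, averaged 87.3 FPKM in STAT3-KO with IL-33, 76.2 in STAT3-KO control, 82.4 in WT with IL-33 and 78.0 in WT control. Sesn1, a stress-induced regulator of growth signalling, averaged 289 FPKM in STAT3-KO with IL-33, 91.8 in STAT3-KO control, 49.8 in WT with IL-33 and 66.2 in WT control, with a difference between responses of 2.04 ± 0.16 (adjusted p = 0.00032). Cdkn1a, the cell cycle inhibitor p21, and Mdm2, the ligase of p53, rose with IL-33 in both genotypes, Cdkn1a by 1.53 ± 0.12 in STAT3-KO (adjusted p = 3.2e-05) and 1.89 ± 0.12 in WT (adjusted p = 1.84e-05), and Mdm2 by 1.82 ± 0.12 in STAT3-KO (adjusted p = 1.35e-05) and 1.58 ± 0.12 in WT (adjusted p = 4.58e-05). In the death receptor list of 11, 3 rose and 0 fell with IL-33 in STAT3-KO (median -0.0040), beside the same 20.4% and 30.6%, and 5 rose and 2 fell in WT (median 0.45), beside 14.5% and 21.6%. With IL-33, 1 of them was higher and 4 were lower in STAT3-KO than in WT, beside 16.3% and 16.4% of all genes. Fas, the receptor of FasL, averaged 50.9 FPKM in STAT3-KO with IL-33 and 19.1 in WT with IL-33 (1.37 ± 0.27, adjusted p = 0.00589, and 0.0582 without replicate 2 of WT with IL-33), whereas Ripk3, a kinase of necroptosis, averaged 78.0 FPKM in STAT3-KO with IL-33 and 180 in WT with IL-33 (-1.19 ± 0.14, adjusted p = 0.000491). Casp8, which cuts BID, rose in both genotypes (1.13 ± 0.09 in STAT3-KO and 0.84 ± 0.09 in WT). Of 5 inhibitors of apoptosis, 1 rose and 3 fell with IL-33 in STAT3-KO (median -0.64), beside 20.4% and 30.6% of all genes, and 3 rose and 0 fell in WT (median 0.68), beside 14.5% and 21.6%. With the length trend removed, the falls of Birc6 (-0.22, adjusted p = 0.387) and Xiap (-0.53, adjusted p = 0.0519) in STAT3-KO were not called. With 5 genes nothing is read from these counts. Birc2, a ubiquitin ligase, averaged 7.23 FPKM in STAT3-KO with IL-33, 11.8 in STAT3-KO control, 14.3 in WT with IL-33 and 8.55 in WT control, with a difference between responses of -1.33 ± 0.20 (adjusted p = 0.00447).

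Of 14 transcription factors known to act on family genes, 6 rose and 6 fell with IL-33 in STAT3-KO (median 0.11), where 51% of all genes were called, and 5 rose and 3 fell in WT (median 0.069), where 36.1% were called. Stat3 itself is among the 6 that fell in STAT3-KO (-0.76 ± 0.15, adjusted p = 0.00305). Stat5a, which carries IL-2 signals to survival genes, averaged 27.9 FPKM in STAT3-KO with IL-33 and 12.5 in WT with IL-33 (1.09 ± 0.16, adjusted p = 0.00128). Nfkb1, a subunit of NF-kB, averaged 15.8 FPKM in STAT3-KO with IL-33, 73.2 in STAT3-KO control, 33.0 in WT with IL-33 and 77.0 in WT control, and it fell with IL-33 in both genotypes. Atf3, a stress factor, averaged 89.0 FPKM in STAT3-KO with IL-33 against 0.201 in STAT3-KO control, and 21.6 in WT with IL-33 against 0.483 in WT control. Its control libraries were all under 1 FPKM, so it passed the filter only through the IL-33 libraries, where it was high. Hif1a, a hypoxia factor known to drive Bnip3, averaged 26.2 FPKM in STAT3-KO with IL-33 and 184 in WT with IL-33 (-2.82 ± 0.24, adjusted p = 0.000112). It averaged 73.6 in STAT3-KO control and 70.9 in WT control. In STAT3-KO its mean was thus lower with IL-33, while that of Bnip3 was higher, at 53.4 FPKM against 20.3 in control. The part of Hif1a in the level of Bnip3 was not tested. Of 10 kinases and ubiquitin enzymes, 2 rose and 2 fell with IL-33 in STAT3-KO and 3 rose and 1 fell in WT, beside the same 51% and 36.1% of all genes called. Pim2, a survival kinase that acts on BAD, rose in both (1.29 ± 0.09 in STAT3-KO and 1.22 ± 0.09 in WT).

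Some reads near the members cannot be assigned with certainty, since the strand setting of the counting is not given. Exons of Bcl2 overlap the antisense gene D630008O14Rik (at most 1.91 FPKM in any library), those of Bak1 overlap Ggnbp1 (at most 0.335 FPKM), those of Bad overlap Gpr137 (1.69 to 3.6 FPKM) and those of Bid overlap Bcl2l13 (9.07 to 13.3 FPKM), while Bax overlaps the gene model Gm45808 on its own strand. The part of overlapping reads in the results was not tested.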

How the data were processed

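RNA of 8 libraries (2 in each of 4 groups) was analysed from 1 deposited table of FPKM values per gene, produced by the authors with Bowtie2 and RSEM (genome GRCm38), per the submitters' processing notes; versions, annotation, filters and strand setting are not given in the sources used here. Merged exon lengths came from GENCODE M21, and depth per library from the steps of the FPKM values: 93.4% to 94.6% of values of at most 100 fragments lay within 0.02 of a whole number. Differences were fitted on log2(FPKM + 1) by limma (version 3.58.1, R 4.3.3), using lmFit, contrasts.fit and a trended eBayes, two-sided, with 1 mean per group over all 8 libraries; residual degrees of freedom were 4 and the median prior ones 4.46. Benjamini-Hochberg adjustment ran over the 11877 genes tested. The procedure was also run on simulated data drawn from the WT control means with a fixed spread. These held no length trend and fewer changed genes than were called with IL-33, so they do not test the procedure under those conditions. Alternatives were another pseudocount (0.1), an FPKM minimum of 5 or none, median-of-ratios rescaling, an untrended prior, the compared groups alone, a replicate block, removal of a loess trend with gene length (span 0.5) and leaving out each library. Promoter sequences are RefSeq's on GRCm38.p6. Tables and figures were made with Python 3.11.15, pandas 2.3.3, numpy 2.4.6 and matplotlib 3.10.9. The members and lists were chosen with earlier results of these data known. All 10 members were named, and from each list up to 4 called genes by smallest p or else the most abundant; the text gives a selection of these, chosen after their values were seen. A few results under that rule are left out of the report.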

Additional observations from a re-analysis of the deposited data

Results flagged for a closer look

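The IL-33 response differed between genotypes for 3 members by the interaction term of limma, where 15.1% of all genes tested were called. With so few members this count is not read as a result about the family. Bcl2l1 responded more strongly in STAT3-KO than in WT cells, by 1.12 ± 0.16 (adjusted p = 0.00404), a call kept in each of 15 alternatives. The rise of Bak1 with IL-33 was called in WT and not in STAT3-KO, and the difference between responses was -1.81 ± 0.41 (adjusted p = 0.022), a call lost in 7 of 14 alternatives. Bid was called higher with IL-33 in STAT3-KO and lower in WT, with a difference of 0.93 ± 0.21 (adjusted p = 0.0227), a call lost in 6 of 15 alternatives. Without any 1 of replicates 1 and 2 of STAT3-KO control, replicate 2 of WT with IL-33 or replicate 1 of WT control, Bcl2l1 was the 1 member called.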

How the results depend on the processing

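Each of the 5 comparisons was refitted under 16 alternatives, or 15 for the difference between responses. Of 312 alternative values of called member results, 257 kept direction and call, 55 lost the call and 0 changed sign, and of 1398 for called pathway genes 1303 kept both and 94 lost the call. Calls of Bcl2 (both IL-33 responses and STAT3-KO against WT with IL-33), Bcl2l1 (STAT3-KO response, genotypes with IL-33, difference between responses), Pmaip1 (both responses), Bax (STAT3-KO response), Bak1 (WT response, genotypes with IL-33) and Bid (genotypes with IL-33) were kept in every alternative run. Leaving out 1 library at a time leaves 1 library in a group. In some of these fits fewer members were called, except for the genotypes in control, where no member was called. The number of all genes called varied as well, so these changes are not read as a result about the family. Over all genes, the count in control was 55, against 0 with the compared groups alone, 34 with a pseudocount of 0.1 and 1 to 35 without 1 library. It was 1799 for the difference between responses, against 1149 with no filter and 764 to 1993 without 1 library. It was 4285 for IL-33 in WT, against 2550 to 4301, and 3876 for the genotypes with IL-33, against 2117 to 4013. Of the calls with IL-33, 40.0% were rises in STAT3-KO and 40.2% in WT, against 53.2% and 55.2% after rescaling. Signs turned only for results that were not called, apart from Usp9x with IL-33 in STAT3-KO (0.13 with the length trend removed). With that trend removed, Bbc3 was -0.13 in STAT3-KO and -0.041 for the difference between responses and Bad was -0.020 for that difference; after rescaling Bbc3 was 0.071 in WT. Without 1 library, Bbc3 spanned -0.060 to 0.13 (STAT3-KO), -0.60 to 0.43 (WT), -0.66 to 0.37 (genotypes in control), -0.18 to 0.13 (genotypes with IL-33) and -0.39 to 0.63 (difference between responses). In control, the genotype difference spanned -0.31 to 0.0039 for Bak1, -0.14 to 0.052 for Bax, -0.62 to 0.031 for Bcl2l11, -0.19 to 0.014 for Bid and -0.079 to 0.26 for Mcl1. Mcl1 spanned -0.048 to 0.59 between genotypes with IL-33 and -0.14 to 0.50 for the difference between responses, where Bcl2l11 spanned -0.60 to 0.048. The causes were not tested. Replicate numbers did not pair the libraries (correlations of deviations -0.0619 to 0.0448), and a replicate block changed no member call, with 6, 6, 0, 5 and 3 members called for IL-33 in STAT3-KO, IL-33 in WT, the genotypes in control, the genotypes with IL-33 and the difference between responses. Of all 11877 genes tested, 6015, 4271, 37, 3813 and 1827 were called with that block, in the same order. Depth limits Bak1 and Bcl2l11, with 26 to 53 fragments in their lowest libraries, and 2 libraries a group limit every SE.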
